A study of Mus musculus with 2 samples.

Results

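The genes described here are 49 genes of mitosis and of the G2/M stage of the cell cycle, named by symbol, and all 49 were found among the 31053 features counted in both libraries of this study. They were measured in conventional dendritic cells, antigen-presenting cells of 2 main kinds, sorted from the lungs of C57BL/6 mice (8 to 10 weeks of age) in steady state, with no genotype or treatment named. Tissue was digested with dispase and cells were sorted by flow cytometry on XCR1 (the cDC1 library) or on CD172a (the cDC2 library), here called cDC1 and cDC2, and each sort gave 1 droplet library, so no value has a replicate check and no test was possible. How many mice each library pools is not stated in its labels. The design sets both kinds of cell side by side. Levels are in CPM, the unique molecular identifiers (UMIs, 1 per captured transcript) of a gene scaled to the total UMIs of the cells summed. All intervals are exact 95% intervals that cover counting error only, and a difference of 2-fold is a rule of size.

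A cell that divides copies its DNA in S phase and then, through G2 and mitosis, makes the proteins that condense, attach and part the chromosomes. Most of the genes for these proteins are held silent in resting cells by the DREAM complex and are switched on late in the cycle by FoxM1 and by B-Myb joined to MuvB. Their promoters often hold 2 kinds of short sequence, the cell cycle homology region (CHR), which MuvB binds, and the CCAAT box, which NF-Y binds. In lung, conventional dendritic cells come from blood-borne precursors and can still divide in the tissue, whereas dendritic cells that have matured, known by the actin-bundling gene Fscn1, are thought to have left the cycle.

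Most of the start regions found for these genes carry those letters, and 6 are shown because the results below turn on their genes. Each runs from 250 bases before to 50 bases after the RefSeq start (GRCm38.p6), 5′ to 3′ on the gene's strand, with every TTTGAA (the CHR letters) and CCAAT on either strand in capitals. Cdk1 (chr10:69352863-69353162, minus strand), the central mitotic kinase, and Lbr (chr1:181842352-181842651, minus strand), the lamin B receptor, were the members furthest apart between libraries. Cdc20 (chr4:118437294-118437593, minus strand), Ube2c (chr2:164769679-164769978, plus strand) and Ccnb2 (chr9:70421505-70421804, minus strand) marked cells with few S-phase transcripts, and Top2a (chr11:99024140-99024439, minus strand) led the core members in dividing cells.
Cdk1: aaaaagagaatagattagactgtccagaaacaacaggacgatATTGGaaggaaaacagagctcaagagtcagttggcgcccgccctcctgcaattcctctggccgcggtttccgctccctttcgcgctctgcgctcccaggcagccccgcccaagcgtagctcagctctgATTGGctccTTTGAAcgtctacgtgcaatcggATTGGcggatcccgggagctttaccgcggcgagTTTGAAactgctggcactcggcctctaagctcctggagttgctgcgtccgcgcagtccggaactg
Lbr: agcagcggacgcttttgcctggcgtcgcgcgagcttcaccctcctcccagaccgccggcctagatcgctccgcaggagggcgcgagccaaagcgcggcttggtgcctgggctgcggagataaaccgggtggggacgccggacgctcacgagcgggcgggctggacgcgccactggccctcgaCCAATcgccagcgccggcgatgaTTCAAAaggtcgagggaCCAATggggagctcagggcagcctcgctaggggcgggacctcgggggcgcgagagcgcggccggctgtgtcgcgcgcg
Cdc20: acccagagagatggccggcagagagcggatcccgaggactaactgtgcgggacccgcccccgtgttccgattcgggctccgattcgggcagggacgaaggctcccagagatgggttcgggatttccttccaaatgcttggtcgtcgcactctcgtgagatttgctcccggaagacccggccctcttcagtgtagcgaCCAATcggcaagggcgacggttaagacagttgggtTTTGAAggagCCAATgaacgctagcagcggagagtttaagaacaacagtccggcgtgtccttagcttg
Ube2c: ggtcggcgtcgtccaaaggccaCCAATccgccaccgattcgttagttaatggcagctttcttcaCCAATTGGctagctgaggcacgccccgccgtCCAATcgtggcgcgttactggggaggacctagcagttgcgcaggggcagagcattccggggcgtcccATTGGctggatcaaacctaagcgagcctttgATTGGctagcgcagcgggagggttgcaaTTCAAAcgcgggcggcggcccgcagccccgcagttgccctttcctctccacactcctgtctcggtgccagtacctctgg
Ccnb2: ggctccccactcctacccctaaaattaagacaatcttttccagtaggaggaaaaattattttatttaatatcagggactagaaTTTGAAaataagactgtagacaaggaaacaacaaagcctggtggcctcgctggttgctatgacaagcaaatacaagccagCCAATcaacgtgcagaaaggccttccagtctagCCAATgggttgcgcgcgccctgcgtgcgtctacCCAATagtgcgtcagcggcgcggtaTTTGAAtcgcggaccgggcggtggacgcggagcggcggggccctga
Top2a: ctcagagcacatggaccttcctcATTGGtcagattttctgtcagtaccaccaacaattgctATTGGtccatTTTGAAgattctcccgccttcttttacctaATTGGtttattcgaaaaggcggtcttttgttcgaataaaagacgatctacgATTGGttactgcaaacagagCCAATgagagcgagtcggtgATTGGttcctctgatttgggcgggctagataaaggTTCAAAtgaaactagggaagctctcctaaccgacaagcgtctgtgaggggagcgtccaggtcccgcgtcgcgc
All 6 hold at least 1 TTTGAA with a CCAAT box a short way upstream. Not every member does: Sgo2a, also named below, had no TTTGAA at either start, and Nusap1 had neither TTTGAA nor CCAAT. In all, 4 of 43 member promoters held neither. In Ube2c the TTTGAA begins 29 bases before the start and the nearest CCAAT box 57 bases before it. Lbr has its TTTGAA at 45 and CCAAT boxes at 68 and 28 bases before the start.

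RefSeq promoters were matched for 40 of the 49 members (43 promoters, since 3 genes have 2 starts). Of these 43, 31 (72.1%) held TTTGAA, against 17.9% of 32851 mouse promoters of the same length. CCAAT was in 34 (79.1%) against 37.4%. With TTTAAA, a second form of the CHR, also accepted, 36 (83.7%) held one against 27.6%. A TTTGAA with a CCAAT box beginning 20 to 40 bases upstream of it, a spacing chosen after the positions were seen, was found in 19 (44.2%) against 0.895% of all promoters. The E2F letters TTTCCCGC, TTTCGCGC, TTTGCCGC and TTTGGCGC, searched on both strands like the rest, were in 2 (4.65%) against 2.26%. For comparison, 41 promoters were matched for 35 of 44 S-phase genes. They turned this round for E2F letters (34.1%) and TTTGAA (12.2%) but not for CCAAT, which 58.5% of them held. The pair at the chosen spacing was in 2.44% of these S-phase promoters. It was in 20.6% of 34 promoters of mitotic genes outside the members, a smaller share than among the members. Letters that match are a description and not a site of binding. The 9 members without an entry were Dlgap5, Aurkb, Cdc25c, Esco2, Tpx2, Ccna2, Smc4, Pbk and Shcbp1.

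**Figure D1:**
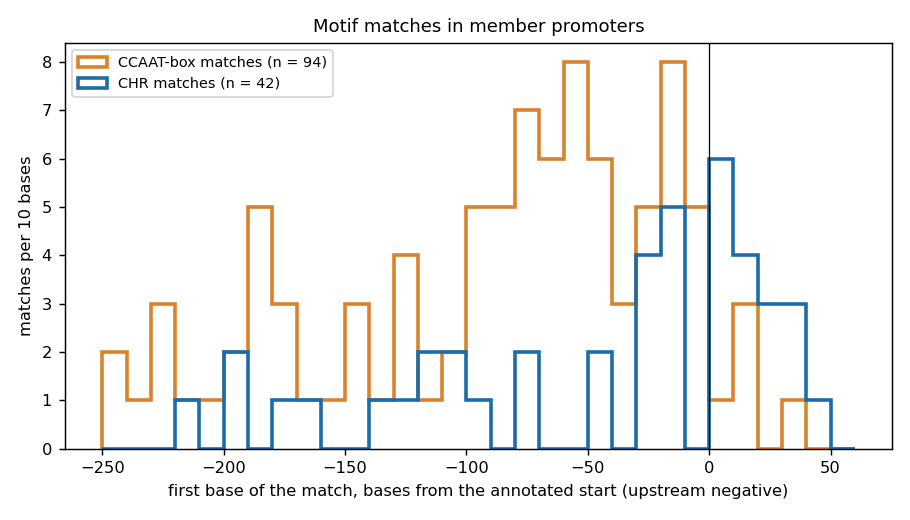
Positions of TTTGAA (blue, 42 matches) and CCAAT (orange, 94 matches) in the 43 member promoters, as matches per 10 bases of distance from the annotated start, both strands together. TTTGAA gathers around the start, with 28 of 42 matches within 50 bases on either side, and CCAAT upstream of it, with 58 of 94 within the 100 bases before the start.

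The cells that passed the filter numbered 2573 with 35044009 UMIs in cDC1 and 2834 with 38574084 UMIs in cDC2, at medians of 12865 and 12653.5 UMIs per cell. The libraries share 5 cell barcodes among these cells. By a gate on marker genes, 0.999% of the cDC1 cells and 10.5% of the cDC2 cells deep enough to be classed below carried transcripts of another type, such as macrophage, monocyte, B cell or neutrophil. Results that move when these cells are left out are given both ways.

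Summed over all 49 members, the libraries were level. The members made up 1478 CPM of the cDC1 library and 1484 CPM of the cDC2 library, a ratio of 0.996 (0.984 to 1.01). Of the 28 members that reached 10 CPM in at least 1 library, 1 was at least 2-fold higher in cDC1, where 5.53% of all 6614 measured genes were, and 1 was at least 2-fold higher in cDC2, where 7.83% were. The other 26 lay within 2-fold, and the median log2 ratio (cDC1 over cDC2) was -0.14, against -0.05 over all measured genes. The 21 members under 10 CPM ran from 0.518 to 9.80 CPM, and every member was detected in both libraries. Leaving out the cells of other types, nearly all of them in cDC2, gave a summed ratio of 0.957.

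The 49 divide into 37 core members, known as transcribed mainly in dividing cells, 11 that resting cells also express (Hmgb2, Smc4, Anp32e, Tubb4b, Cks1b, Cks2, Lbr, Tacc3, Ckap5, Ncapd2 and Ckap2) and Esco2, which belongs to S phase. The core members summed to 647 CPM in cDC1 and 688 CPM in cDC2, a ratio of 0.940 (0.924 to 0.957), and to a ratio of 0.893 without cells of other types. The broadly expressed members gave 825 and 792 CPM. Hmgb2, a chromatin protein and the most abundant member, alone gave 377 and 310 CPM.

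**Figure D2:**
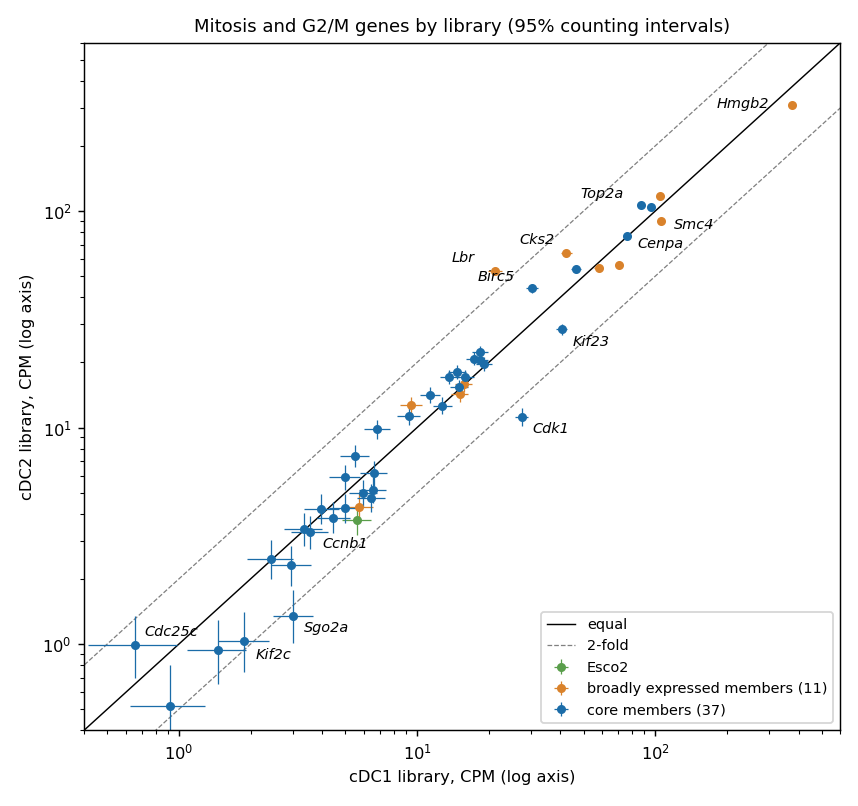
Level of each of the 49 members in cDC1 (x axis, CPM, log scale) against the cDC2 library (y axis, CPM, log scale), with 95% counting intervals, for core members (blue), broadly expressed members (orange) and Esco2 (green). Most points lie near the line of equal levels, with Cdk1 (27.5 against 11.2 CPM) below the 2-fold line and Lbr (21.3 against 52.9 CPM) above it.

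Among the genes of the mitotic kinase and its partners, Cdk1 stood apart from the cyclins it works with. Cdk1 (ENSMUSG00000019942; chromosome 10, 69335146 to 69352938, GRCm38) had 27.5 CPM in cDC1 (25.7 to 29.2) and 11.2 CPM in cDC2 (10.1 to 12.3), so the intervals were well apart and the gene was 2.46-fold higher in cDC1 (2.19 to 2.76). Cyclin A2 (Ccna2) had 11.3 and 14.1 CPM, and cyclin B2 (Ccnb2) 18.4 and 22.3 CPM. Both cyclins thus lay on the other side, 1.24-fold (1.09 to 1.42) and 1.21-fold (1.09 to 1.35) higher in cDC2. Cyclin B1 (Ccnb1) was scarcer, at 3.54 and 3.29 CPM. Of the small kinase-binding proteins, Cks1b had 58.1 and 54.9 CPM and Cks2 42.4 and 64.0 CPM, which made Cks2 1.51-fold higher in cDC2 (1.42 to 1.61). Cdc25c, a phosphatase that activates the kinase, was among the rarest members with 23 and 38 UMIs in all.

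The genes that end mitosis and guard chromosome attachment were close between the libraries. Ube2c, the ubiquitin-conjugating enzyme of the anaphase-promoting complex, had 46.7 and 54.0 CPM, and Cdc20, an activator of that complex, 5.94 and 4.98 CPM. Of the chromosomal passenger complex, Birc5 (survivin) had 30.4 CPM in cDC1 and 44.1 CPM in cDC2, 1.45-fold higher in cDC2 (1.34 to 1.57). Cdca8 (borealin) had 18.4 and 20.6 CPM and the kinase gene Aurkb 9.22 and 11.3 CPM, so all 3 leaned the same way. The checkpoint kinase genes Bub1 and Ttk had 4.97 and 5.88 CPM and 1.46 and 0.933 CPM. Aurka, a centrosome kinase, had 2.43 and 2.46 CPM.

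Centromere, kinetochore and spindle genes covered a wide range of levels with small differences. Cenpa, the histone variant that marks centromeres, had 75.9 and 77.1 CPM. Cenpe and Cenpf, a kinetochore motor and a large kinetochore protein, had 19.1 and 19.6 CPM and 16.0 and 17.1 CPM. Nuf2 and Ndc80, which bind microtubules as 1 complex, had 4.45 and 3.84 CPM and 4.99 and 4.25 CPM. These pairs did not separate beyond counting error, whereas Sgo2a, a shugoshin that shields centromeric cohesion, had 3.02 and 1.35 CPM. Sgo2a was thus 2.24-fold higher in cDC1 (1.596 to 3.19) at a level under the limit of 10 CPM. The spindle motor gene Kif11 had 15.1 and 15.3 CPM, Tpx2, which nucleates spindle microtubules, 12.8 and 12.6 CPM, and Nusap1 17.4 and 20.8 CPM. The microtubule depolymerase gene Kif2c had 1.88 and 1.04 CPM, 1.82-fold higher in cDC1 (1.21 to 2.76) on 66 and 40 UMIs.

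Chromosome and cytokinesis genes made up the rest. Mki67, which coats mitotic chromosomes and is the usual marker of proliferation, had 95.9 and 105 CPM and the DNA-untangling enzyme gene Top2a 87.6 and 107 CPM. The condensin subunit genes Smc4 and Ncapd2 had 106 and 89.6 CPM and 9.45 and 12.7 CPM. Anp32e, a histone chaperone, had 105 and 117 CPM, and Tubb4b, a beta-tubulin, 70.5 and 56.5 CPM. None of these 6 reached 1.5-fold. Kif23, a motor of the central spindle needed to part the daughter cells, had 40.5 CPM in cDC1 and 28.4 CPM in cDC2, 1.43-fold higher in cDC1 (1.32 to 1.54). The other cytokinesis genes Ect2, Anln and Kif20b had 2.97 and 2.31, 3.34 and 3.40, and 6.51 and 5.16 CPM.

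Lbr, an inner nuclear membrane protein that binds lamin B, was the member furthest toward cDC2. Lbr (ENSMUSG00000004880; chromosome 1, 181815335 to 181843046, GRCm38) had 21.3 CPM (19.8 to 22.8) in cDC1 and 52.9 CPM (50.7 to 55.3) in cDC2, 2.49-fold higher in cDC2 (2.29 to 2.71). Its 3′ end, where this kit counts, lies within Dnah14 on the opposite strand. The same holds for Ube2c (with Tnnc2), Ccna2 (Exosc9), Cdc20 (Elovl1), Ckap2l (Gm14024) and Tubb4b (Fam166a), and whether the counting used strand is not stated.

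To see which cells hold these transcripts, each cell was thinned to 5000 UMIs, and a cell was called G2/M-positive at 3 or more UMIs of the 37 core members. By this measure 17.4% of the cDC1 cells (435 of 2502; 15.9 to 18.9) and 18.0% of the cDC2 cells (487 of 2699; 16.6 to 19.5) were positive. Mature cells, chosen by 3 or more Fscn1 UMIs alone, were the background, with 8.64% (7 of 81; 3.55 to 17.0) and 4.23% (3 of 71; 0.880 to 11.9). A second random draw of UMIs gave 6.17% and 8.45% in mature cells and 17.3% and 18.3% over all cells, and with mitochondrial UMIs held to 5% the mature share in cDC2 was 1.92%. The share over all cells thus lay above that of mature cells in both libraries, while no order of the libraries is read from the few positive mature cells. Without thinning, the shares were 42.5% and 40.01% over all cells and 28.4% and 23.9% in mature cells, whose median depths were 12627 and 10852 UMIs, against 12965 and 12863 UMIs over all cells. Thinning left out 71 and 135 shallower cells. With all 49 members scored, 63.4% and 57.1% of cells would be positive and 51.9% and 36.6% of mature cells, which is why the broadly expressed members were kept out of the score.

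The core transcripts were concentrated in a minority of cells. Cells with 10 or more core UMIs per 5000 numbered 165 in cDC1 (6.59%) and 218 in cDC2 (8.08%). They held 9.98% and 11.6% of all UMIs in the classed cells but 67.4% and 71.2% of the core member UMIs. The same transcripts chose these cells, so part of that share is built in and it is a description. The highest cells reached 70 and 54 core UMIs per 5000. These cells were also the deepest, at medians of 20747 and 20335 UMIs and 3935 and 3833 genes before thinning, against 12544.5 and 12355 UMIs in cells with neither G2/M nor S-phase transcripts. Thinning makes the depth equal but does not show whether such cells hold more RNA or are doublets, and the part of doublets was not tested.

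**Figure D3:**
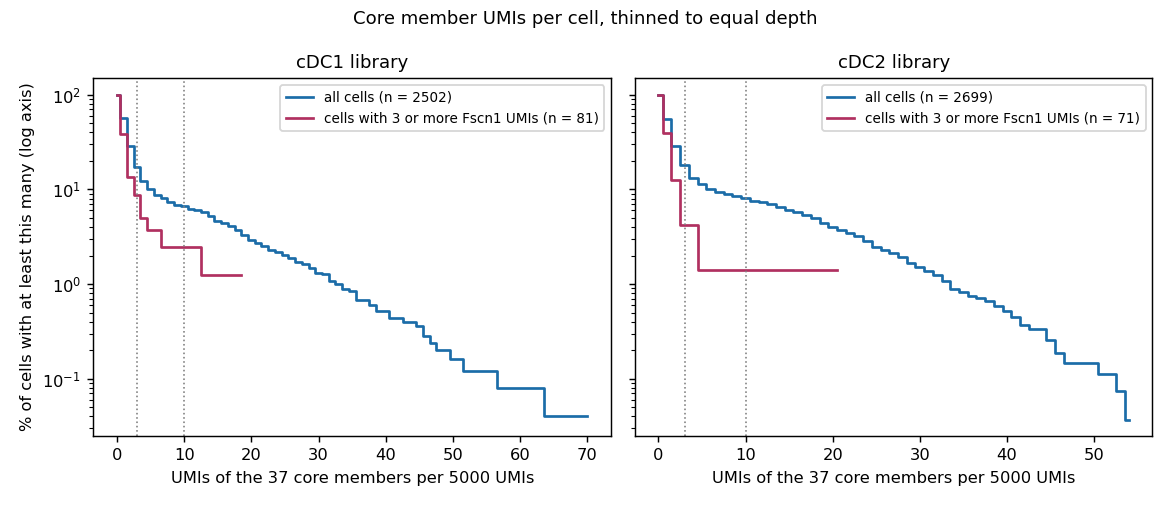
Percent of cells (y axis, log scale) with at least the number of core member UMIs on the x axis, after each cell was thinned to 5000 UMIs, for all cells (blue) and for cells with 3 or more Fscn1 UMIs (red) of each library. Dotted lines mark 3 and 10 UMIs, where 17.4% and 6.59% of all cDC1 cells and 18.0% and 8.08% of all cDC2 cells remain, while mature cells fall away sooner.

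G2/M-positive cells carried the marker genes of their sort. Summed over 8 cDC1 marker genes they had 2452 CPM in cDC1 and 189 CPM in cDC2, and over 8 cDC2 marker genes 198 and 2599 CPM. The cells with neither kind of cycle transcript had 2495 CPM of the cDC1 markers and 3271 CPM of the cDC2 markers in their own library. Cells of other types by the gate made up 0.460% of G2/M-positive cells in cDC1 and 7.19% in cDC2, below their share of all cells in each library. In the cDC2 library the 4 neutrophil markers summed to 230 CPM in G2/M-positive cells, 963 CPM in S-only cells and 101 CPM in the neither class. The 4 NK cell markers summed to 47.3 CPM in G2/M-positive cells, of which Gzma alone gave 45.5 CPM. In the cDC1 library those 2 lists had 1.21 and 0.134 CPM in G2/M-positive cells, with Retnlg, Csf3r, Ncr1, Klrb1c and Eomes at 0. In S-only cDC1 cells the 2 lists had 1.15 and 20.3 CPM. The part of cells of other types in the cDC2 values was not tested beyond leaving out the gated cells.

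The balance of G2/M to S-phase cells depended on the number of UMIs asked of a cell. A cell was called S-only when it had 3 or more UMIs of 44 S-phase genes and was not G2/M-positive. There were 301 S-only cells in cDC1 (12.0%) and 363 in cDC2 (13.4%), which gives 1.45 G2/M-positive cells per S-only cell in cDC1 (1.24 to 1.68) and 1.34 in cDC2 (1.17 to 1.54). S-only cells at 3 UMIs, however, were no commoner than in mature cells, where they made up 13.6% (11 of 81; 6.98 to 23.0) and 18.3% (13 of 71; 10.1 to 29.3), so this class is at its background. At 5 UMIs S-only cells made up 4.24% of all and 2.47% of mature cells in cDC1 (2 of 81; 0.300 to 8.64). In cDC2 they made up 5.74% and 7.04% (5 of 71; 2.33 to 15.7). At 10 UMIs the shares were 2.52% and 1.23% in cDC1 (1 of 81; 0.0313 to 6.69) and 2.33% and 2.82% in cDC2 (2 of 71; 0.343 to 9.81). These mature shares rest on few cells, so no difference from all cells or between the libraries is read from them. At 5 UMIs the balance was 2.40 (1.90 to 3.03) and 1.96 (1.61 to 2.40), and at 10 UMIs 2.62 (165 against 63 cells; 1.95 to 3.56) and 3.46 (218 against 63 cells; 2.60 to 4.66). The balance counts cells with both kinds of transcript as G2/M-positive. With those set aside, cells positive for G2/M alone numbered 210 against 301 S-only cells in cDC1 and 219 against 363 in cDC2 at 3 UMIs, 104 against 106 and 143 against 155 at 5 UMIs, and 106 against 63 and 153 against 63 at 10 UMIs. Which of the 2 kinds was commoner thus depended on how cells with both were counted at 3 and 5 UMIs. Which library had the higher balance also changed with the number of UMIs, so no order of the libraries is read from it. Over all UMIs, core members summed to 1.18 times the S-phase genes in cDC1 (1.16 to 1.21) and to 1.34 times in cDC2 (1.32 to 1.37).

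Many G2/M-positive cells still carried S-phase transcripts. Of 435 such cells in cDC1, 225 also had 3 or more S-phase UMIs, and of 487 in cDC2 268 did. The classes thus overlap in both libraries.

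Within each library the members were high together in G2/M-positive cells. Each core member was measured after classing cells without its own UMIs, yet the other core members chose those cells, so their counts are a description. Against S-only cells, 43 of 44 measured members were at least 2-fold higher in cDC1, where 3.53% of all genes were, and 42 of 42 in cDC2, where 3.59% were. In the other direction 0 members were at least 2-fold lower in either library, where 0.447% and 0.635% of all genes were. The median log2 ratio over those measured was 4.01 and 3.53, against 0.08 and 0.06 over all measured genes. The 1 exception was Cks2 in cDC1, with 77.4 CPM in G2/M-positive and 41.1 CPM in S-only cells. Broadly expressed members took no part in choosing the cells, and 10 of 11 and 11 of 11 were at least 2-fold higher, with Hmgb2 at 1042 against 267 CPM in cDC1 and 945 against 158 CPM in cDC2. Of 40 further mitotic genes, also outside the score, 30 of 31 and 27 of 30 measured were at least 2-fold higher. Stmn1, a microtubule-destabilizing protein and the most abundant of them, had 712 against 116 CPM and 684 against 102 CPM. The exceptions were Pttg1 in both libraries and G2e3 and Tuba1c in cDC2. Only 14 of those 40 genes, and 28 of the 49 members, reached 10 CPM in a library as a whole. Others counted here passed that limit through the class of cells where they are high, so part of these counts is built in. S-phase genes, of which S-only cells were chosen to hold more, were still at least 2-fold higher in G2/M-positive cells for 18 of 36 and 16 of 33.

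Members differed in how much of their RNA lay in these cells. G2/M-positive cells held 21.4% of all UMIs in cDC1 and 22.4% in cDC2. The most concentrated members in cDC1 were Hmmr (98.7% of its UMIs), Kif2c (98.5%), Bub1 (98.3%), Iqgap3 (97.5%) and Pbk (97.3%), and in cDC2 Ttk (100%, on 36 UMIs in the library), Sgo2a (98.1%), Nuf2 (98.0%), Hmmr (97.9%) and Cdc25c (97.4%). Hmmr, a hyaluronan receptor that also binds the mitotic spindle, was thus among the 5 most concentrated in both. The least concentrated were Cenpa (34.3% and 39.6%), Cks2 (39.2% and 39.0%), Anp32e (43.2% and 43.0%), Smc4 (43.8% and 51.2%) and Lbr (47.5% and 41.4%).

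Cenpa was the 1 core member among these, and it was not scarce in other cells. It had 150 CPM in G2/M-positive cells, 54.2 CPM in S-only cells and 61.7 CPM in the neither class of the cDC1 library, and 163, 48.6 and 59.1 CPM in cDC2. A Cenpa UMI was seen in 21.0% and 22.4% of the neither cells after thinning, against 5.43% and 5.14% for Top2a. Kif23 and Mki67 also kept RNA outside G2/M-positive cells. Kif23 had 20.9 and 11.6 CPM in the neither class and 55.6% and 66.0% of its UMIs in G2/M-positive cells, and Mki67 40.8 and 34.7 CPM with 64.1% and 70.5%.

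**Figure D4:**
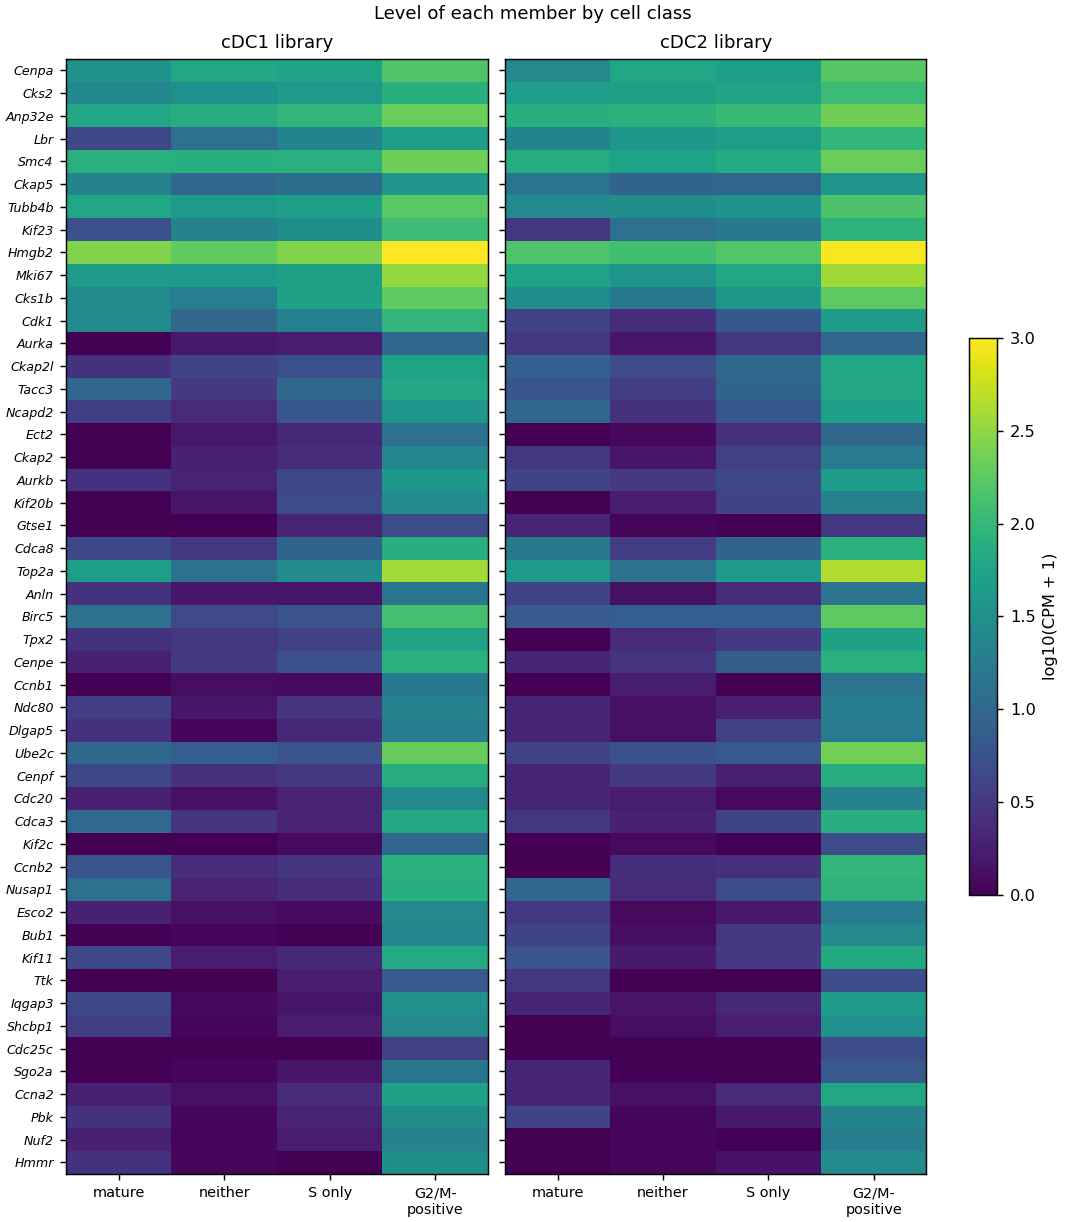
Level of each member as log10(CPM + 1) in mature cells, cells with neither kind of cycle transcript, S-only cells and G2/M-positive cells of the cDC1 library (left) and the cDC2 library (right). Members are ordered by the mean share of their UMIs in G2/M-positive cells, from Cenpa at the top to Hmmr at the bottom, and most are bright in the G2/M-positive column alone.

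Inside G2/M-positive cells the libraries were again close. Of 44 members measured there, 2 were at least 2-fold higher in cDC1, where 5.38% of all genes were, and 1 was higher in cDC2, where 7.26% were. Neither count is above its share of all genes. The median log2 ratio (cDC1 over cDC2) was 0.02, against -0.03 over all measured genes. Cdk1 had 92.4 CPM in G2/M-positive cDC1 cells and 42.8 CPM in G2/M-positive cDC2 cells, 2.16-fold higher in cDC1 (1.90 to 2.46). It was also higher in S-only cells (18.8 against 5.67 CPM) and in the neither class (8.97 against 1.47 CPM), so the difference was present in every class. In the cDC1 library 69.5% of Cdk1 UMIs lay in G2/M-positive cells, and in cDC2 84.8%. Sgo2a had 13.6 and 5.96 CPM, 2.28-fold higher in cDC1 (1.61 to 3.25). Lbr had 46.6 and 96.4 CPM, 2.07-fold higher in cDC2 (1.82 to 2.35), beside 12.6 and 38.2 CPM in the neither class. The counts of 2 and 1 rest on values near the rule: Sgo2a drops out at a limit of 20 CPM, and Lbr falls under 2-fold when cells are classed at 2000 UMIs or at 5 core UMIs.

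Cells with 10 or more core UMIs could be ordered further by their S-phase transcripts, a division chosen after the class of S-only cells was seen to lie at background. In the cDC1 library 112 such cells had 5 or more S-phase UMIs per 5000 (S-rich) and 53 had fewer (S-poor), and in cDC2 133 and 85. Both sets were of like depth, at medians of 20703.5 and 20885 UMIs in cDC1 and 20367 and 20191 UMIs in cDC2. Of 47 members measured in cDC1, 8 were at least 2-fold higher in S-poor cells, where 3.70% of all genes were, and 2 in S-rich cells, where 5.24% were. Of 45 measured in cDC2, 1 was at least 2-fold higher in S-poor cells, where 1.12% of all genes were, and 5 in S-rich cells, where 5.12% were. The median log2 ratio (S-rich over S-poor) of the members measured was -0.18 and 0.46, against -0.05 and 0.06 over all measured genes. The counts of 2 in S-rich cDC1 cells and 1 in S-poor cDC2 cells are near the shares of all genes. The share of all genes on the same side in both libraries was not counted, so genes named for that below are a description.

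Cdc20, Ube2c, Ccnb2, Cenpf and Cenpa lay toward S-poor cells in both libraries. Cdc20 had 24.4 CPM in S-rich and 110 CPM in S-poor cells of the cDC1 library, 4.52-fold higher in S-poor (3.28 to 6.29), and 25.8 and 51.9 CPM in cDC2, 2.01-fold higher (1.45 to 2.80). It thus passed 2-fold in both libraries. Its partner Ube2c had 193 and 733 CPM in cDC1, 3.80-fold higher in S-poor cells (3.37 to 4.28), and 300.2 and 588 CPM in cDC2, 1.96-fold higher (1.78 to 2.16). Ccnb2 was 2.56-fold (2.15 to 3.05) and 1.83-fold (1.57 to 2.13) higher in S-poor cells, Cenpf 2.70-fold (2.24 to 3.25) and 1.66-fold (1.40 to 1.97), and Cenpa 1.84-fold (1.58 to 2.14) and 1.62-fold (1.42 to 1.85). For all 5 the intervals lay on the S-poor side in both libraries. Not every member that acts late in mitosis shared this direction in both libraries. The kinase gene Aurkb was higher in S-rich cells of both. Cdca8 and Kif23 lay toward S-poor cells in cDC1, at 0.74-fold and 0.687-fold as high in S-rich cells. In cDC2 they lay toward S-rich cells, at 1.22-fold and 1.39-fold. Ccnb1 had 18.1 and 61.1 CPM in cDC1, 3.37-fold higher in S-poor cells (2.27 to 5.07), but 23.6 and 24.3 CPM in cDC2 (1.03-fold; 0.677 to 1.55). Ckap2, Hmmr and Ect2 made up the 8 in cDC1, at 2.64-, 2.03- and 2.01-fold, and lay at 1.05-, 0.966- and 0.727-fold in cDC2.

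Esco2 and Pbk lay toward S-rich cells in both libraries. Esco2, the acetyltransferase that locks cohesin rings in S phase, had 67.8 CPM in S-rich and 4.56 CPM in S-poor cells of the cDC1 library, 14.9-fold higher in S-rich (6.24 to 46.4), and 41.0 and 3.02 CPM in cDC2, 13.6-fold higher (5.66 to 42.7). Pbk, a mitotic kinase, had 66.9 and 31.0 CPM in cDC1, 2.16-fold higher in S-rich cells (1.48 to 3.23), and 51.6 and 10.4 CPM in cDC2, 4.95-fold higher (2.99 to 8.74). Both members thus passed 2-fold in each library. They are neighbours on chromosome 14, transcribed toward each other, with 1215 bases between their annotated 3′ ends, and neither annotated gene overlaps the other. In the cDC2 library Iqgap3 (2.47-fold; 1.84 to 3.35), Shcbp1 (2.43-fold; 1.77 to 3.41) and Aurkb (2.09-fold; 1.59 to 2.78) also passed 2-fold, and in cDC1 they were 1.47-, 1.44- and 1.61-fold higher in S-rich cells. Top2a was 1.21-fold (1.10 to 1.33) and 1.53-fold (1.41 to 1.66) higher in S-rich cells, and Cdk1 1.07-fold (0.891 to 1.30) and 1.495-fold (1.16 to 1.94). Of the 40 further mitotic genes, 38 were measured here in cDC1 and 37 in cDC2. In S-poor cells 2 and 1 were at least 2-fold higher, where 3.70% and 1.12% of all genes were. In S-rich cells 1 and 4 were, where 5.24% and 5.12% of all genes were. Cdc25b, a phosphatase of the mitotic kinase, passed 2-fold toward S-poor cells in both libraries. It had 15.6 CPM in S-rich and 46.5 CPM in S-poor cells of the cDC1 library and 17.4 and 36.8 CPM in cDC2.

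**Figure D5:**
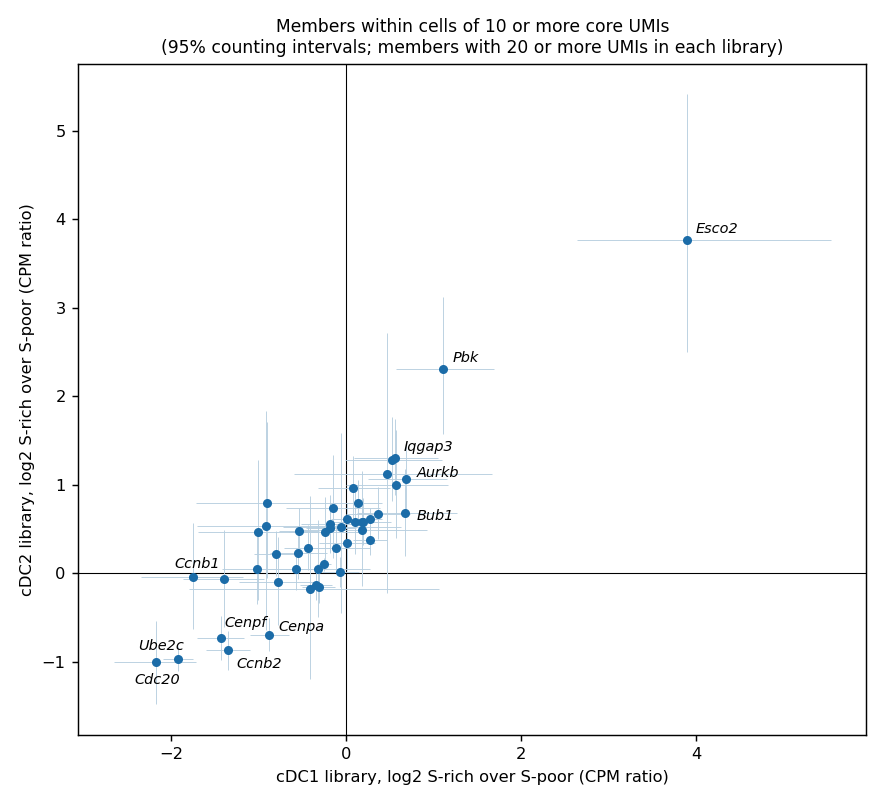
Log2 ratio of each member's CPM in S-rich over S-poor cells, among cells with 10 or more core UMIs, in cDC1 (x axis) and the cDC2 library (y axis), with 95% counting intervals, for 48 members with 20 or more UMIs in each library. Esco2 lies far to the upper right at 3.89 and 3.77, while Cdc20, Ube2c, Cenpf, Ccnb2 and Cenpa lie at the lower left.

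Mature cells held less RNA of most members than the other cells of their library. In the cDC1 library, where 84 cells had 3 or more Fscn1 UMIs, 15 of 26 measured members were at least 2-fold lower in mature cells, where 14.3% of all genes were, and 0 were at least 2-fold higher, where 12.9% were. In the cDC2 library, with 74 mature cells, 21 of 29 were at least 2-fold lower, where 8.68% of all genes were, and 0 were higher, where 10.2% were. The median log2 ratio (mature over other cells) of the measured members was -1.23 and -1.60, against -0.05 and 0.05 over all measured genes. A lower limit of 2 Fscn1 UMIs added 21 cells in cDC2, 3 of them with 10 or more core UMIs, and left 5 members at least 2-fold lower there. Core members summed to 237 CPM in mature and 661 CPM in other cells of the cDC1 library, 2.79-fold lower (2.47 to 3.15), and to 199 and 700.4 CPM in cDC2, 3.52-fold lower (3.05 to 4.07).

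The members that were not 2-fold lower were mostly the broadly expressed ones. In the cDC1 library they were Top2a, Cdk1, Nusap1, Cks2, Tacc3, Smc4, Cdca3, Ckap5, Hmgb2, Tubb4b and Anp32e, and in cDC2 Mki67, Cks2, Cks1b, Smc4, Cdca8, Ckap5, Ncapd2 and Anp32e. Cdk1 had 26.1 CPM in mature and 27.5 CPM in other cells of the cDC1 library (30 UMIs in mature cells), against 3.09 and 11.4 CPM in cDC2 (3 UMIs). Ube2c had 8.71 against 48.0 CPM and 3.09 against 55.3 CPM, and Cenpe 0.871 against 19.7 CPM and 1.03 against 20.1 CPM, the latter on 1 UMI in each library. Ccnb2 had 5.23 against 18.8 CPM in cDC1 and 0 UMIs among 969460 against 22.9 CPM in cDC2, a log2 ratio of -2.89 when the 0 is set to a floor of 3 counts. Of all members, 11 had no UMI in the mature cDC1 cells and 10 none in the mature cDC2 cells.

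Part of what mature cells held came from few cells. In the cDC1 library 2 of the 84 mature cells had 10 or more core UMIs and held 123 of the 272 core UMIs (45.2%), and in cDC2 1 of the 74 held 62 of 193 (32.1%). Their Fscn1 counts were 6 to 13 and 8 UMIs, below the medians of 24 and 17 UMIs in mature cells. Without these cells the core members summed to 134 and 138 CPM in mature cells. The other cells that were neither G2/M- nor S-positive, a class chosen for few such transcripts, had 184 and 161 CPM. By member, over all mature cells, 3 of 47 detected were lower and 5 were higher than in non-dividing cells in both libraries with intervals clear of 1, where 6.06% and 9.23% of 14670 detected genes were, so both shares are near the background. Kif23 had 4.36 CPM in mature and 21.6 CPM in non-dividing cells of the cDC1 library, 4.96-fold lower (2.11 to 15.4), and 2.06 and 11.9 CPM in cDC2, 5.76-fold lower (1.58 to 47.8) on 2 UMIs. Cenpa had 33.1 and 63.1 CPM, 1.91-fold lower (1.38 to 2.71), and 24.8 and 60.03 CPM, 2.42-fold lower (1.62 to 3.80). Lbr had 3.49 and 13.005 CPM, 3.73-fold lower (1.44 to 13.8), and 21.7 and 39.0 CPM, 1.80-fold lower (1.17 to 2.93). Kif23, Cenpa and Lbr are also among the members with RNA outside G2/M-positive cells. The 5 higher in mature cells were Top2a, Nusap1, Kif11, Pbk and Hmgb2. Top2a was 4.07-fold (2.98 to 5.48) higher in cDC1 and 3.22-fold (2.25 to 4.51) in cDC2, Nusap1 14.0-fold (6.28 to 30.1) and 7.61-fold (3.17 to 16.5), and Hmgb2 1.48-fold (1.31 to 1.66) and 1.23-fold (1.04 to 1.46), while Kif11 and Pbk had 5 or fewer UMIs in mature cells. Without the cells of 10 or more core UMIs, Top2a had 11.7 CPM in mature cDC1 cells, against 11.6 CPM in non-dividing cells, and 22.1 against 12.5 CPM in cDC2. Nusap1 rested on 13 and 9 UMIs in mature cells, of which 5 and 2 were left without those cells. That left it at 4.51 against 0.812 CPM in cDC1 and 2.11 against 1.22 CPM in cDC2. All 8 were picked out after their values were seen, and a class chosen for few core transcripts sets the core members low in the cells compared with. Cdk1 in mature cDC1 cells stood at 18.9 CPM without the 2 cells, above the 8.73 CPM of non-dividing cells there.

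Genes around the members in the cycle gave a similar picture between libraries. Of 40 further mitotic genes, 14 were measured in the libraries as a whole and 0 were 2-fold apart, with sums of 652 and 655 CPM. Cit, a kinase of cytokinesis, was furthest toward cDC2 among them at 8.70 against 11.4 CPM. Arhgap11a was furthest toward cDC1 among them at 12.5 against 7.96 CPM, 1.57-fold higher in cDC1 (1.35 to 1.82). Of 44 S-phase genes, 20 were measured and 1 was at least 2-fold apart, Dtl, a subunit of a ubiquitin ligase of replication, at 13.2 against 6.38 CPM. Mcm6, a subunit of the replicative helicase, had 38.0 against 20.8 CPM, 1.83-fold higher in cDC1 (1.67 to 2.00), and the sliding clamp gene Pcna 72.1 against 70.6 CPM. The S-phase genes summed to 546 and 512 CPM, a ratio of 1.07 (1.05 to 1.09).

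Of 9 genes for the factors that control these promoters, 4 were measured and 0 were 2-fold apart. Lin54, the MuvB subunit that binds the CHR, had 25.9 CPM in cDC1 and 44.2 CPM in cDC2, 1.71-fold higher in cDC2 (1.57 to 1.85), and the retinoblastoma gene Rb1 24.2 and 30.7 CPM. Of 10 genes for brakes of the cycle, 9 were measured and 0 were 2-fold apart, though Gadd45b and the kinase inhibitor gene Cdkn1a were 1.92-fold (1.87 to 1.97) and 1.82-fold (1.76 to 1.88) higher in cDC2. Of 7 G1 genes, all 7 were measured. Cdk6, a kinase of G1, had 75.3 and 35.5 CPM and was 2.12-fold higher in cDC1 (1.99 to 2.27), and cyclin D2 (Ccnd2) had 274 and 545 CPM, 1.99-fold higher in cDC2 (1.94 to 2.04). In mature cDC1 cells 3 of the 9 measured brakes were at least 2-fold higher than in other cells, where 12.9% of all genes were. They were Cdkn1a (324 against 152 CPM), Ccng2 (21.8 against 9.29 CPM) and Gadd45b (747 against 227 CPM). Cdkn2d (9.58 against 39.9 CPM) was the 1 at least 2-fold lower, where 14.3% of all genes were. In cDC2 0 were higher, where 10.2% of all genes were. Cdkn2d was again the 1 lower, at 30.9 against 65.9 CPM, where 8.68% were. The counts of 1 are near these shares. The brakes summed to 5253 CPM in mature and 4347 CPM in other cells of cDC1 and to 5389 and 3897 CPM in cDC2, and most of both sums was Btg1.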

How the data were processed

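The deposited files are the authors' raw UMI counts (1 matrix of genes by barcodes for each library). The kit was 10x Chromium v3.1, per the labels' protocols, and counts transcript 3′ ends, so levels depend little on the length of a gene. Cell Ranger 3.2 and mm10 are named in the submitters' processing notes, as is Seurat without a role, while the headers of the matrices give 3.0.2. Neither the annotation release nor how barcodes were selected is stated.

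Barcodes with under 500 genes or 1000 UMIs, or over 10% mitochondrial UMIs, were dropped (365 and 210). Scrublet in scanpy 1.11.5, run per library, marked 1 and 1 doublets, too few to rely on, so doublets otherwise stayed in. Sums of UMIs over a set of cells were divided by their total to give CPM, with exact Poisson, conditional binomial and Clopper-Pearson intervals. A gene counted as measured when it reached 10 CPM in 1 of the 2 sets compared, and a count of 0 was set to 3 counts in a ratio. Ratio code was tested on simulated data. Coordinates are from GENCODE vM21 (GRCm38, the assembly of mm10), matched by ID.

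The members and lists were chosen with earlier results of these data known. Named genes are the extremes of library ratio, level, concentration in G2/M-positive cells and the mature contrast, with 2 to 4 per further list. The level of 10 core UMIs, the S-rich division and the comparison of mature with non-dividing cells were added after seeing the data. The cell filter, scaling, thinning (its depth and a second random draw), thresholds and limits were varied.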

Additional observations from a re-analysis of the deposited data

Results flagged for a closer look

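In 3 members the ratio of S-rich over S-poor cells, among cells with 10 or more core UMIs, pointed in opposite directions in the 2 libraries, with each interval clear of 1. Kif23 had a ratio of 0.687 (0.585 to 0.807) in the cDC1 library and 1.39 (1.17 to 1.66) in the cDC2 library. Cdca8 had 0.74 (0.613 to 0.895) and 1.22 (1.02 to 1.46), and Hmgb2 0.84 (0.796 to 0.886) and 1.07 (1.02 to 1.13). With 1 library per sort the difference between the libraries was not tested.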

How the results depend on the processing

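Of 192 values recomputed under other settings, 150 kept within their counting error or within 1.5 times the count, 42 moved and 0 reversed. Only the library ratios of Cdk1 and Lbr and the summed ratios of core members and S-phase genes could be called reversed. Counts, shares and balances could not. The summed ratio of all members crossed 1 within its counting error, at 1.001 without a cell filter and 1.005 with mitochondrial UMIs held to 5%. Without cells of other types the ratio of summed CPM (cDC1 over cDC2) was 0.957 for all members, 0.893 for core members and 0.965 for the further mitotic genes, and with cells weighted equally it was 0.984 for all members and 1.02 for S-phase genes. The share of G2/M-positive cells (cDC1, then cDC2) was 8.77% and 10.1% at 2000 UMIs, 27.6% and 26.2% at 8000 UMIs, 29.0% and 28.8% at 2 core UMIs, 10.2% and 11.3% at 5, 6.59% and 8.08% at 10, and 63.4% and 57.1% with all 49 members. In mature cells it was 2.38% (cDC1, 2000 UMIs), 13.1% (cDC2, 8000 UMIs), 12.7% (cDC2, 2 core UMIs), 2.47% (cDC1, 10 core UMIs), and 51.9% and 36.6% with all members. The balance with S-only cells was 1.81 and 1.96 at 2000 UMIs, 1.11 (cDC2) at 8000 UMIs, 1.22 (cDC1) at 2 UMIs, 2.40 and 1.96 at 5, 2.62 and 3.46 at 10, and 17.1 and 9.52 with all members. Members at least 2-fold lower in mature cells numbered 24 (cDC1) at a limit of 5 CPM, 7 and 11 at 20 CPM, where fewer are measured, and 5 (cDC2) at 2 Fscn1 UMIs. Within G2/M-positive cells, members higher in cDC1 numbered 1 at 20 CPM, at 8000 UMIs and at 2 core UMIs, and those higher in cDC2 numbered 0 at 2000 UMIs and at 5 core UMIs. Except where stated, the cause was not tested. The 84 and 74 mature cells leave single members on few UMIs there, and a second random draw moved their share of G2/M-positive cells to 6.17% and 8.45%. No paired analysis was possible because there is 1 library per sort.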
